A study of Mus musculus with 12 samples.

Results

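The genes Ctss, Cst3, Fuca1 and Fuca2 were followed in the brains of mice without the DNA repair gene Ercc1. Each was read from 1 probe set, a set of short array probes for 1 transcript: 1448591_at for Ctss, 1426195_a_at for Cst3, 1416109_at for Fuca1 and 1416046_a_at for Fuca2. They are 4 of the 486 genes that could be named and 4 of 45037 probe sets other than controls. They were picked with the values of these arrays in view. All 4 are in the authors' list of probe sets that differ between genotypes in cerebellum and 0 are in their hippocampus list. The differences below between knockout and wild type are therefore descriptions, and no p-value is given for these genes. No other named probe set of these genes was at hand.

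Total RNA of each brain region was measured on Affymetrix whole-genome mouse expression arrays, which report each transcript as a fluorescence intensity, and each of the 12 arrays holds 1 sample. The 4 groups of 3 arrays are hippocampus of Ercc1-/- mice (KO), hippocampus of Ercc1+/+ littermates (WT), cerebellum of Ercc1-/- mice and cerebellum of Ercc1+/+ littermates. All mice were crosses of FVB and C57BL/6 and were killed on postnatal day 21. The labels name no Cre line and no cell type for the deletion, and they do not say whether a replicate number stands for a mouse. None of the 8 marker genes fixed for hippocampal neurons and none of the 11 for cerebellar neurons could be named, so the region labels were not checked against them.

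Cathepsin S is a cysteine protease of the lysosome and of endosomes. In antigen-presenting cells it cuts the invariant chain that shields class II molecules, and in the brain it is made mainly by microglia, the resident macrophages. Cystatin C is a small secreted protein that blocks cysteine proteases of the papain family, cathepsin S among them, and is abundant in astrocytes and choroid plexus. Fuca1 encodes the lysosomal α-L-fucosidase that takes terminal fucose off glycoproteins and glycolipids, and its loss in humans causes the storage disease fucosidosis. Fuca2 encodes a related α-L-fucosidase that is found in plasma.

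The DNA before the start of 3 of these genes is shown because all of them were higher on every KO cerebellum array. Each line gives 250 bases up to the annotated start, read 5′ to 3′ on the strand of the gene, from RefSeq on build GRCm38.p6. Capitals mark matches, lying wholly within the printed bases, to the motifs named after the sequences. The windows are chr3:95526536-95526785 on the plus strand for Ctss, chr2:148875513-148875762 on the minus strand for Cst3 and chr4:135920476-135920725 on the plus strand for Fuca1. The RefSeq window of Fuca2, on chromosome 10, starts inside the annotated gene and is not printed.
Ctss: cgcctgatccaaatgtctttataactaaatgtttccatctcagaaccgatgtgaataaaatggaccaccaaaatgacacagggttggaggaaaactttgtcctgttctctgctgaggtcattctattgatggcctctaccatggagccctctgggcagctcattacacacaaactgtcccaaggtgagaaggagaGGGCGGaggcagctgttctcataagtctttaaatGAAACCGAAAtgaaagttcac
Cst3: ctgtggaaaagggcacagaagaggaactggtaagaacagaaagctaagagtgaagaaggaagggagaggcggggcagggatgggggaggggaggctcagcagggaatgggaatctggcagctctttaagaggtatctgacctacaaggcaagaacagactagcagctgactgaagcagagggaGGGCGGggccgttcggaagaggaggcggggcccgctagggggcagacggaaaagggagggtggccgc
Fuca1: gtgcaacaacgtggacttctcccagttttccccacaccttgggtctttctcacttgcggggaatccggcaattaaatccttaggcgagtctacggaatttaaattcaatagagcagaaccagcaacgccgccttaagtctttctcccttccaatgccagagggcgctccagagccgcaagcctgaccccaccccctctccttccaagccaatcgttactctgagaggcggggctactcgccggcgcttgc

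The motifs were searched on both strands over 300 bases, the 250 before each start and the 50 after it, in 32851 RefSeq windows, and they were chosen with these sequences in view. Ctss held 1 match to the core of the interferon-stimulated response element (GAAA, 2 bases of any kind and GAAA), from -21 to -12 counted from the start, and 3.44% of all windows held one. Ctss also held 1 match to GAGGAAGT, a site form of the macrophage factor PU.1, on the opposite strand across the start from -2 to 6 and so not in capitals, and 3.20% of all windows held one. The GC box GGGCGG was found once in Ctss, in Cst3 at -67 and again after the start at 26, and in Fuca1 after the start at 13, against 35.7% of all windows. CACGTG, the E-box read by the TFEB family of lysosomal regulators, was in 7.15% of windows and in 0 of the 4, and Fuca2 held no match to any of the motifs. A match is a description of letters and not a shown binding site.

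Arrays had similar overall brightness: their median intensities ran from 160.2 to 168.2 for hippocampus and from 154.4 to 168.2 for cerebellum. Ercc1 itself read 49.8 to 65.9 on KO against 175.2 to 222.6 on WT hippocampus arrays, and 55.9 to 70.3 on KO against 115.2 to 223.4 on WT cerebellum arrays. Within the hippocampus groups 1 leading component held 69.7% of the variation left between arrays, with KO replicates 1 and 3 and WT replicate 1 on one side of it. Cerebellum KO replicate 1 stood out by its Gapdh control, with a 3′ over 5′ signal of 1.5, where the remaining 5 cerebellum arrays gave 0.999 to 1.20. The hippocampus values of this control were not analysed here. The log2 changes of the 4 genes and of the ratio, and the regional difference of Ctss, were also computed without each array in turn. Percentiles, region quotients, correlations and values relative to marker genes were computed on all arrays only.

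Ctss was higher on all KO arrays than on any WT array, in hippocampus and in cerebellum, and the distance was wider in cerebellum. In hippocampus it read 3552, 3401 and 3477 on the KO arrays, against 2890.2, 2954 and 2907.5 on the WT arrays. The means ± SD of 3 arrays were 3477 ± 75.6 for KO and 2917 ± 33.0 for WT, a factor of 1.19 with no overlap. In cerebellum Ctss read 1102.7, 1246.9 and 1143.8 on the KO arrays, against 522.6, 519.4 and 495.9 on the WT arrays. Even the lowest KO array was 2.11 times the highest WT array here, and the means ± SD of 3 arrays were 1164.5 ± 74.3 for KO and 512.6 ± 14.6 for WT, a factor of 2.27. On the scale of log2(intensity + 32) the change, KO minus WT, was 0.25 ± 0.06 (SE) in hippocampus and 1.13 ± 0.09 (SE) in cerebellum. Without cerebellum KO replicate 1 the cerebellum change was 1.17. In bulk tissue, more or fewer cells of a type and more or less RNA per cell cannot be told apart.

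Cst3, among the brightest probe sets of every array, overlapped between genotypes in hippocampus and was higher in KO cerebellum. The KO hippocampus arrays had intensities of 12611, 13449 and 13414, against 12068, 12998 and 13929 on the WT hippocampus arrays. There the highest value of all 6 belonged to WT replicate 3 and the lowest to WT replicate 1, and the means ± SD of 3 arrays were 13158 ± 474.3 for KO and 12998 ± 930.3 for WT. The KO cerebellum arrays had 6661, 7038 and 6678, against 4444, 4303 and 4043 on the WT cerebellum arrays. These groups do not overlap, since the lowest KO array was 1.5 times the highest WT array, and the means ± SD of 3 arrays were 6792 ± 212.7 for KO and 4263 ± 203.7 for WT. The log2 change of Cst3 was 0.02 ± 0.06 (SE) in hippocampus, smaller than its error, and 0.67 ± 0.07 (SE) in cerebellum. Among all probe sets of an array Cst3 stood at percentile 99.9 or higher in hippocampus, and in cerebellum at 99.7 on the KO arrays against 98.7 to 98.9 on the WT arrays.

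The fucosidase genes were higher in KO in both regions, with means 1.17 to 1.28 times those of WT. Fuca1 read 1188, 1269 and 1186 on the KO hippocampus arrays, against 980.3, 1088 and 1017 on the WT hippocampus arrays. In cerebellum it read 833.4, 766.0 and 790.8 on KO, against 718.8, 625.5 and 646.7 on WT. Neither region had overlapping groups, and the mean of Fuca1 in KO was 1.18 times that in WT in hippocampus and 1.20 times in cerebellum. The lowest KO array was 1.09 times the highest WT array in hippocampus and 1.07 times in cerebellum. The log2 change of Fuca1 was 0.23 ± 0.09 (SE) in hippocampus and 0.25 ± 0.09 (SE) in cerebellum.

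Fuca2 read 799.6, 689.7 and 761.5 on the KO hippocampus arrays, against 686.1, 619.3 and 623.5 on the WT hippocampus arrays. The groups almost touch, since KO replicate 2 was 1.01 times WT replicate 1. In cerebellum Fuca2 read 394.9, 357.0 and 373.1 on KO, against 327.9, 286.2 and 261.5 on WT. That gap was wider, with the lowest KO array at 1.09 times the highest WT array, although WT cerebellum had the largest relative spread of any group of the 4 genes, a coefficient of variation of 11.5%. The log2 change of Fuca2 was 0.21 ± 0.10 (SE) in hippocampus and 0.33 ± 0.11 (SE) in cerebellum.

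**Figure D1:**
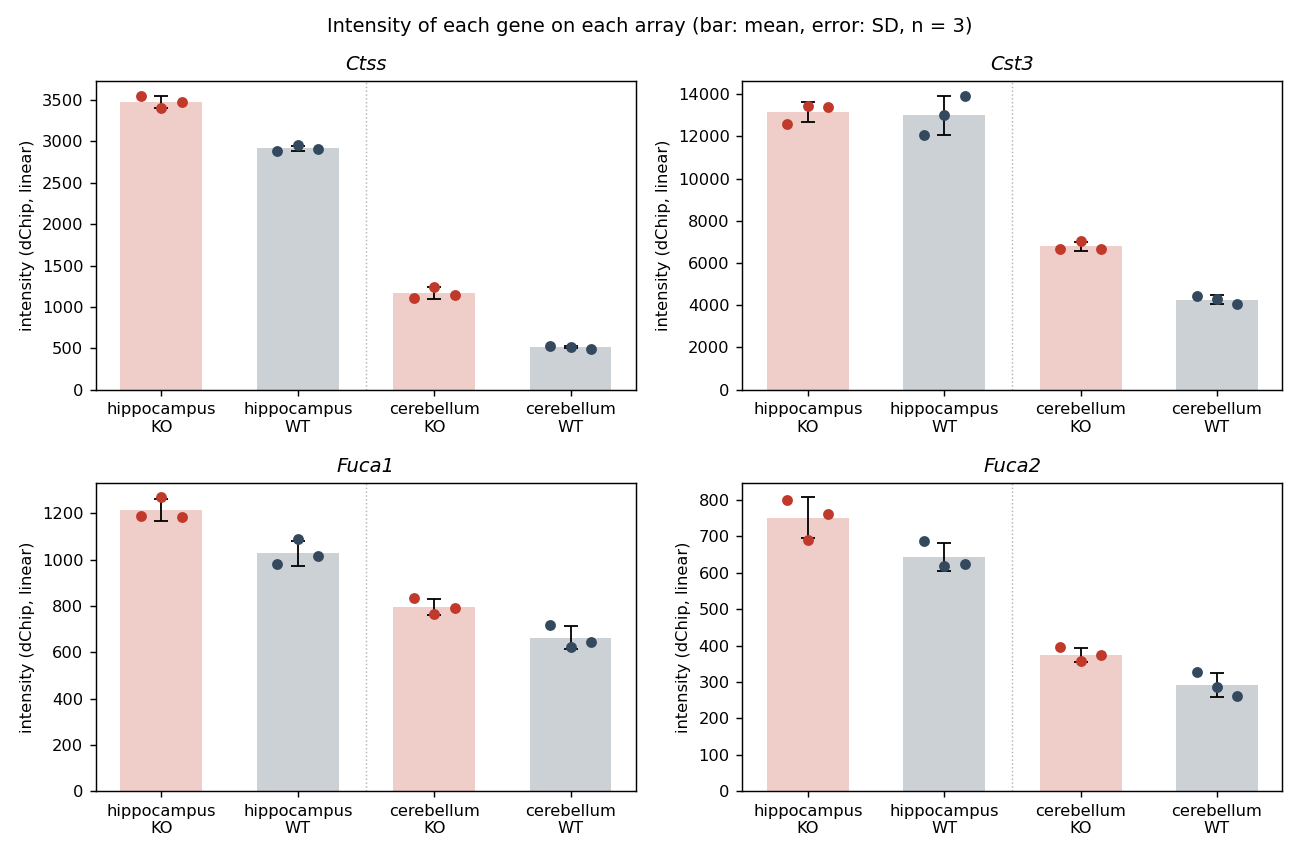
Intensity (dChip values, linear axis from 0) of Ctss, Cst3, Fuca1 and Fuca2 on each of the 12 arrays, with the mean as a bar and the SD of 3 arrays as the error bar, KO left of WT in each region. KO points lie above all WT points in every pair of groups except Cst3 in hippocampus, where they lie within the WT range of 12068 to 13929.

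The number of members without overlap can be set beside the same count over all probe sets. In hippocampus 3 of the 4 genes had every KO array above every WT array, against 4.48% of the 27022 probe sets tested there. The genes were picked with the hippocampus values in view too, so nothing is read from this count. In cerebellum 4 of 4 had every KO array above every WT array, against 5.30% of 27022. This contrast chose the genes, so nothing is read from it. None of the 4 had every KO array below every WT array, against 4.44% of probe sets in hippocampus and 4.17% in cerebellum. Ctss, Fuca1 and Fuca2 were above in both regions, as were 0.825% of the 23283 probe sets kept in both. The choice of the genes had already met the cerebellum part of this condition, so nothing is read from this count either. At a Benjamini-Hochberg adjusted limma p under 0.05, 0% of all probe sets were called as higher or as lower in either region. The 4 genes are thus among those not called, which is not read as a test of them. Without adjustment, 1003 probe sets in hippocampus and 1169 in cerebellum had a limma p under 0.05.

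Set among the log2 changes of all tested probe sets, whose median was 0.01 in hippocampus and -0.02 in cerebellum, the members lay mostly on the upper side. In hippocampus Ctss was at percentile 96.8, Fuca1 at 96.1 and Fuca2 at 94.9, while Cst3 was at 54.2, close to the middle. In cerebellum Ctss was at percentile 99.9, Cst3 at 99.7, Fuca2 at 98.0 and Fuca1 at 95.7. The order of the genes thus differed, with Cst3 last in hippocampus and behind only Ctss in cerebellum.

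**Figure D2:**
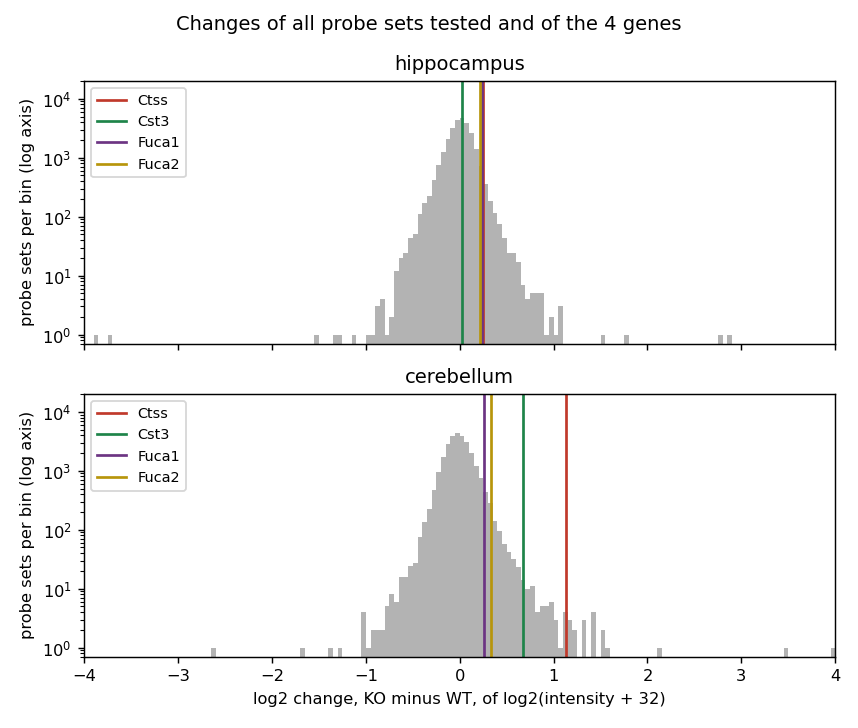
Histogram of the log2 change, KO minus WT, over the 27022 probe sets tested in each region (bins on the horizontal axis, number of probe sets per bin on a log axis), with a line for each of the 4 genes. The lines of Ctss (1.13) and Cst3 (0.67) stand far to the right in cerebellum, and in hippocampus the lines of Ctss, Fuca1 and Fuca2 lie between 0.21 and 0.25 with Cst3 at 0.02.

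In the authors' deposited table for hippocampus the ratios of the group means, KO over WT, are 1.19 for Ctss, 1.17 for Fuca1, 1.17 for Fuca2 and 1.01 for Cst3. No entry of either of the authors' deposited lists has a fold below 1.20, so the first 3 lie just outside that threshold. In the authors' deposited table for cerebellum the signed fold changes of KO over WT are 2.27 for Ctss, 1.59 for Cst3, 1.28 for Fuca2 and 1.20 for Fuca1, the last being at the threshold. These folds chose the genes and are given as a description.

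The ratio of Ctss to Cst3 sets the protease beside its inhibitor on the same array. Its level has no meaning of its own, because the probe sets differ in how brightly they report a transcript, so only its change between arrays is read. In hippocampus the ratio was 0.282, 0.253 and 0.259 on the KO arrays, against 0.239, 0.227 and 0.209 on the WT arrays. In cerebellum it was 0.166, 0.177 and 0.171 on the KO arrays, against 0.118, 0.121 and 0.123 on the WT arrays. The KO arrays lay above the WT arrays in both regions, with the lowest KO value 1.06 times the highest WT value in hippocampus and 1.35 times in cerebellum.

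As means ± SD of 3 arrays, the ratio was 0.265 ± 0.015 for KO and 0.225 ± 0.015 for WT hippocampus, and 0.171 ± 0.006 for KO and 0.120 ± 0.003 for WT cerebellum. Its log2 change was 0.23 ± 0.07 (SE) in hippocampus, a factor of 1.18, and 0.51 ± 0.03 (SE) in cerebellum, a factor of 1.42. The ratio was higher by different routes: in hippocampus Ctss was higher in KO and Cst3 overlapped, whereas in cerebellum both were higher and Ctss by more. Leaving out WT replicate 3, which had the brightest Cst3 of the hippocampus arrays, gave a log2 change of 0.18 there.

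**Figure D3:**
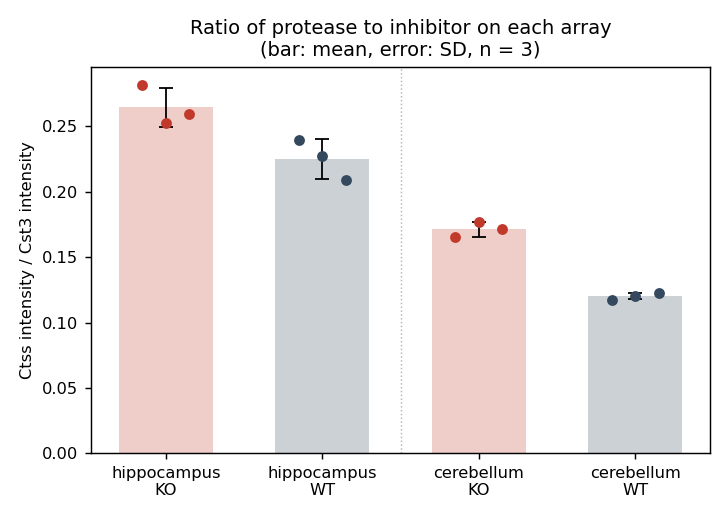
Ratio of Ctss intensity to Cst3 intensity on each array (linear axis from 0), with the mean as a bar and the SD of 3 arrays as the error bar. KO lies above WT in both regions, with mean ratios of 0.265 in KO and 0.225 in WT hippocampus, and 0.171 in KO and 0.120 in WT cerebellum.

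The log2 change in hippocampus minus that in cerebellum was -0.88 ± 0.10 (SE) for Ctss and -0.65 ± 0.09 (SE) for Cst3. For the fucosidase genes it was -0.12 ± 0.14 (SE) for Fuca2 and -0.02 ± 0.12 (SE) for Fuca1, each smaller than its own error. Over 23283 probe sets kept in both regions the limma fit called 1 as lower in hippocampus, or 0.00429%, and 0 as higher, or 0%. Without adjustment 731 had a limma p under 0.05 for this difference. The 1 called was Ctss, a result known when the genes were chosen. The call for Ctss ended with a pseudocount of 100, without the filter on low values, with quantile normalization, without the intensity trend and with the replicate number as a block. It also ended without any single one of 10 of the 12 arrays, and was kept without cerebellum WT replicate 1 and without cerebellum WT replicate 2. The size of the difference lay between -0.92 and -0.83 in all 12 cases.

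Levels of the regions stand side by side here only as deposited, since the tables were made per region and may have been normalized apart. The mean intensity in hippocampus over that in cerebellum was 2.99 in KO and 5.69 in WT for Ctss, and 1.94 in KO and 3.05 in WT for Cst3. It was 1.52 in KO and 1.55 in WT for Fuca1, and 2.0 in KO and 2.20 in WT for Fuca2. The median of this quotient over probe sets above the 40th percentile of mean level was 1.27 in KO and 1.26 in WT. All 4 genes had the order KO hippocampus, WT hippocampus, KO cerebellum and WT cerebellum from the highest mean down, and of neighbours in this order only the hippocampus groups of Cst3 overlapped.

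A rank within its own array does not depend on the scaling of that array. Ctss lay at percentile 96.7 to 96.9 in KO and 95.8 to 95.9 in WT hippocampus, and at 90.1 to 91.7 in KO and 76.8 to 78.5 in WT cerebellum. Fuca1 lay at 87.1 to 87.8 in KO and 84.6 to 85.6 in WT hippocampus, and at 85.1 to 86.1 in KO and 81.3 to 84.4 in WT cerebellum. Fuca2 lay at 78.4 to 81.2 in KO and 76.4 to 79.1 in WT hippocampus, which overlap, and at 70.1 to 71.9 in KO and 62.3 to 68.7 in WT cerebellum. Ctss in cerebellum thus had the widest step in rank between genotypes of the 3.

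Of the other lysosomal genes on the fixed lists only the few that the authors had selected in a region could be named, so their directions are not independent evidence. Ctsc, cathepsin C or dipeptidyl peptidase 1, was the 1 of 16 listed lysosomal proteases with a name, and 0 of 20 cystatins and related inhibitors other than Cst3 had one. Ctsc had 568 to 600.0 in KO and 411 to 488 in WT hippocampus, and 171 to 180 in KO and 118 to 134 in WT cerebellum, with log2 changes of 0.33 ± 0.10 and 0.37 ± 0.09 (SE). Its WT cerebellum values lay below the cerebellum array medians of 154.4 to 168.2, where the added constant understates a change. Its groups overlapped in neither region, although the authors had selected it in hippocampus only.

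Arsb, the sulfatase that acts on dermatan and chondroitin sulfate, had log2 changes of 0.14 ± 0.06 (SE) in hippocampus and 0.38 ± 0.09 (SE) in cerebellum. Among 22 genes of the lysosomal membrane and its regulators, Lamp2 had 0.12 ± 0.14 and 0.44 ± 0.11 (SE), and Laptm5 0.11 ± 0.12 and 0.87 ± 0.15 (SE), in hippocampus and in cerebellum. Both overlapped between genotypes in hippocampus. Ctsc, Arsb, Lamp2 and Laptm5 all had log2 changes above 0 in both regions, and 0 of the 4 passed the adjusted limma test.

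Of 16 genes of fucose metabolism other than the fucosidases, 2 could be named, and each had its KO arrays all below its WT arrays in 1 region. That was the region in which the authors had selected it, cerebellum for Fcsk and hippocampus for Fut9, so nothing is read from it. Over all tested probe sets, 4.17% were below in this way in cerebellum and 4.44% in hippocampus. Fcsk, the kinase that salvages free fucose, had 575.5 to 643.9 in KO and 716.7 to 747.6 in WT cerebellum, with no overlap and a log2 change of -0.26 ± 0.09 (SE). In hippocampus it had 466 to 536 in KO and 421.5 to 517 in WT, which overlap. Fut9, a fucosyltransferase that makes the Lewis X structure in brain, had 1813 to 1959 in KO and 2205 to 2484 in WT hippocampus, a log2 change of -0.32 ± 0.08 (SE). In cerebellum its log2 change was -0.18 ± 0.14 (SE), with overlap. Neither passed the adjusted limma test in either region. None of the 8 listed genes of class II antigen presentation could be named.

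**Figure D4:**
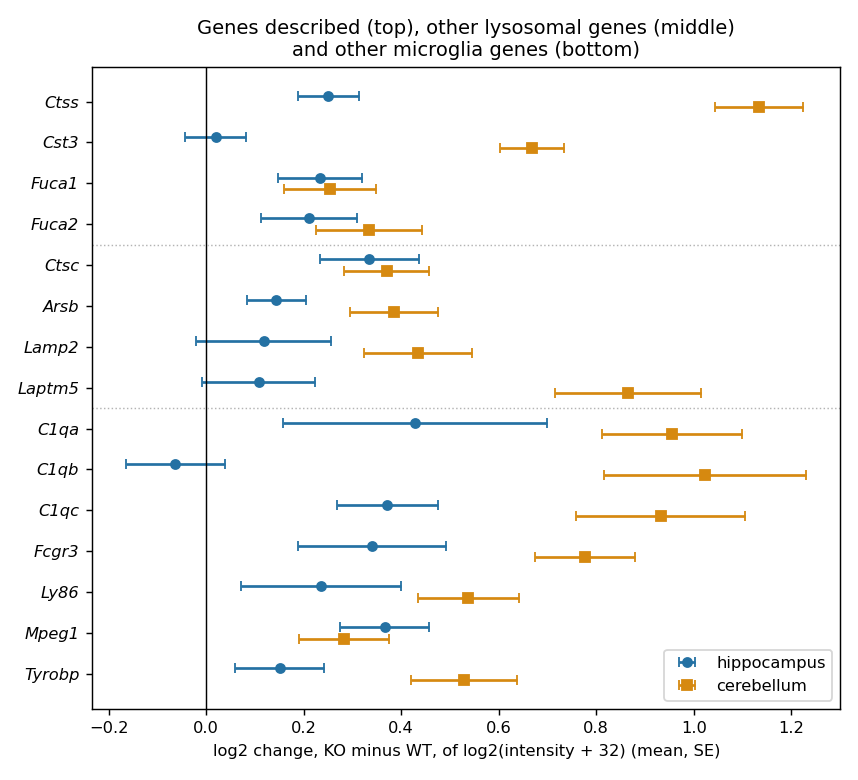
Log2 change, KO minus WT, with its SE, of the 4 genes (top), of other named lysosomal genes (middle) and of other named microglia genes (bottom), circles for hippocampus and squares for cerebellum. Ctss reaches 1.13 in cerebellum and 0.25 in hippocampus, while the circles and squares of Fuca1, Fuca2 and Ctsc lie close together.

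Named microglia markers had higher summed levels in KO in both regions and named astrocyte markers in cerebellum, beside the higher Ctss and Cst3 there, and their part in the results was not tested. Of 30 microglia markers other than Ctss, 9 could be named, and in cerebellum all 9 had log2 changes above 0, with a median of 0.78. Their summed intensity was 3513 to 3708 in KO and 1901 to 2439 in WT cerebellum. In hippocampus 8 of the 9 were above 0, with a median of 0.24, and the sum was 10222 to 10746 in KO and 8567 to 9764 in WT. Without hippocampus KO replicate 1 that median was 0.13. None was at 0 on any array, but Fcgr3, Laptm5 and C1qb were dim in WT cerebellum. They read 82.8 to 107, 85.3 to 139 and 86.7 to 148 there, below the cerebellum array medians of 154.4 to 168.2. Their changes in cerebellum thus start from low values. Of the 9 markers, 0 passed the adjusted limma test. The authors had selected all 9, in cerebellum or in both regions.

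The 3 of these with the smallest p in cerebellum were Fcgr3, C1qa and Laptm5. Fcgr3, an activating receptor for antibody-coated particles, had 354 to 443 in KO and 258 to 379 in WT hippocampus, which overlap, and 173 to 184 in KO and 82.8 to 107 in WT cerebellum. C1qa, a chain of the first complement component, had 1018 to 1551 in KO and 598.5 to 1161 in WT hippocampus, which overlap, and 559 to 671 in KO and 263 to 376 in WT cerebellum. In hippocampus C1qc and Mpeg1, which encodes the pore-forming protein perforin-2, were among the 3 of the 9 without overlap, with 1211 to 1318 in KO and 890.1 to 1096 in WT for C1qc, and 591.6 to 602.0 in KO and 435 to 492 in WT for Mpeg1. The log2 change was higher in cerebellum than in hippocampus for 8 of the 9 microglia genes, the exception being Mpeg1, with 0.37 in hippocampus and 0.28 in cerebellum, and these regional differences were not tested as a group.

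Relative to the mean log2 level of these 9 genes on the same array, Ctss differed between KO and WT by 0.02 ± 0.06 (SE) in hippocampus, with overlap, and by 0.41 ± 0.10 (SE) in cerebellum, without overlap. For Cst3 the same quantity was -0.21 ± 0.05 (SE) in hippocampus, without overlap, and -0.06 ± 0.08 (SE) in cerebellum, with overlap. For Fuca1 it was 0.01 ± 0.04 (SE) in hippocampus and -0.47 ± 0.08 (SE) in cerebellum. For Fuca2 it was -0.02 ± 0.12 (SE) in hippocampus and -0.39 ± 0.08 (SE) in cerebellum. Both fucosidase genes overlapped in hippocampus, and in cerebellum both were lower in KO relative to the microglia genes, without overlap. All these values were computed with the main added constant only, which shrinks the changes of dim genes more. With a pseudocount of 1, the median log2 change of the 9 genes in cerebellum was 0.97 instead of 0.78. That of Ctss was 1.18 instead of 1.13, and that of Cst3 was 0.67 with either constant. The cerebellum values relative to the microglia genes may therefore depend on the constant, and how far was not tested.

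Of 18 astrocyte markers, 6 could be named, and in each region Aldoc, Gfap, Gjb6 and Glul had log2 changes above 0 while Aqp4 and Slc4a4 had log2 changes below 0. The authors had selected Aqp4 and Slc4a4 in hippocampus only, Gfap and Glul in cerebellum only, and Aldoc and Gjb6 in both. The directions and overlaps of these genes are thus not independent evidence. Aqp4, the water channel of astrocyte endfeet, had 3041 to 3504 in KO and 4314 to 4608 in WT hippocampus, a log2 change of -0.45 ± 0.08 (SE) without overlap, and overlapped in cerebellum. Slc4a4, a sodium bicarbonate cotransporter, had 2246 to 2301 in KO and 2644 to 3004 in WT hippocampus, a log2 change of -0.28 ± 0.08 (SE) without overlap, and overlapped in cerebellum. Their summed intensity was 20171 to 21225 in KO and 19873 to 20557 in WT hippocampus, where the ranges overlap, and 14777 to 16380 in KO and 12301 to 13545 in WT cerebellum. Their median log2 change was 0.20 in hippocampus, or 0.0039 when every named probe set of a gene was used, and 0.65 in cerebellum. Relative to the mean of these 6 genes, Cst3 differed between KO and WT by -0.09 ± 0.08 (SE) in hippocampus and by 0.13 ± 0.07 (SE) in cerebellum, with overlap in both regions.

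The 4 named of 13 oligodendrocyte markers summed to 11606 to 12111 in KO and 12273 to 17365 in WT hippocampus, and to 11054 to 13215 in KO and 8262 to 9563 in WT cerebellum. Their sum was thus lower in KO hippocampus and higher in KO cerebellum, but not every gene of it was without overlap. Mobp had 5096 to 5570 in KO and 5077 to 7286 in WT hippocampus, and Mbp 252 to 547 in KO and 229 to 429 in WT cerebellum. None of Ctss, Cst3, Fuca1 and Fuca2 had a KO mean below the WT mean in either region, and the part of oligodendrocytes was not tested. The 2 named of 6 meningeal fibroblast markers, Col1a2 and Fmod, overlapped in hippocampus and summed to 983.2 to 1139 in KO and 731.2 to 813.7 in WT cerebellum. Alas2, the 1 named of 3 red blood cell markers, overlapped in hippocampus and had 112.2 to 154.6 in KO and 169.1 to 233.8 in WT cerebellum. No defining marker of these types was at 0, but Fmod in WT cerebellum, at 104 to 149, lay below the array medians of 154.4 to 168.2. Alas2 was dim as well, at 112.2 to 154.6 in KO cerebellum and down to 123.5 in KO hippocampus. Of the named markers, 0 passed the adjusted limma test. The authors had selected Mbp in hippocampus only and the other markers of this paragraph in cerebellum only. The directions and overlaps of these markers are thus not independent evidence. The marker lists for neurons, endothelium, choroid plexus, and border macrophages, monocytes and neutrophils held no gene that could be named.

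The named genes with the most similar profiles were ranked by Pearson's r over the 12 arrays after the mean of each region was taken out. The pool was 448 named genes, all picked by the authors for a difference between genotypes, so a high r mostly shares the split of KO and WT. For Ctss they were the neuronal nitric oxide synthase gene Nos1 (r = 0.97), the growth factor gene Fgf7 (0.95) and Hsd17b11 (0.95). For Cst3 they were the glutamine synthetase gene Glul (0.97), Nos1 (0.95) and Cd38 (0.94), which encodes an ectoenzyme that consumes NAD. The log2 changes of Nos1, Fgf7 and Hsd17b11 were 0.02, 0.12 and 0.18 in hippocampus and 0.36, 0.82 and 0.59 in cerebellum.

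For Fuca1 the first 2 were Pnpla7 (0.96) and Selenbp1 (0.95), with log2 changes of 0.40 and 0.45 in hippocampus and 0.39 and 0.54 in cerebellum. For Fuca2 they were Ctxn2 (0.93), the astrocyte filament gene Gfap (0.93) and the phagocytic receptor gene Mertk (0.92), with log2 changes of 0.24, 0.34 and 0.48 in hippocampus and 0.31, 1.16 and 0.57 in cerebellum. Among the 4 genes themselves the same measure was highest for Ctss with Cst3, at 0.96, and lowest for Cst3 with Fuca1, at 0.69. These are descriptions over arrays that share their genotype split.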

How the data were processed

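The deposited values are intensities on a linear scale, 1 for each probe set and sample, which the authors made with dChip, per the labels' design text. How dChip corrected background and normalized arrays was not stated in the sources used here. The fold change score and the unadjusted p-value of each selected probe set come from the authors' deposited lists, per the file headers. The deposited matrix equals the tables per region (largest difference 0), no pair of arrays was identical (0) and 0 sample columns were left unused. The deposited lists name 610 probe sets, 538 with 1 current symbol, after matching to the RefSeq gene table of GRCm38.p6, used for names.

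Values were analysed as log2(intensity + 32), which understates changes of dim probe sets, without the 64 control probe sets, over probe sets with a mean above the 40th percentile of the region. KO was compared with WT within a region by limma 3.58.1 in R 4.3.3 (trend, Benjamini-Hochberg at 0.05), and the regional difference in 1 fit of all 12 arrays. The labels do not say which samples share a mouse, so a p-value reflects the scatter of these samples only, and 3 per group limit precision. Each gene of a list was read from its brightest named probe set. In simulated data the fit called 65% of log2 changes of 1 in hippocampus and 71% in cerebellum. It called 11% and 15% of log2 changes of 0.5, so a count of 0 called does not show that nothing changed. The simulated noise was independent between probe sets, unlike the shared component of the real arrays.

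Named were the 4 genes, the 3 genes most like each, and list genes with at most 4 of the smallest p per region. Other marker genes are given as groups, apart from C1qb, named for its low level. The astrocyte genes were named after their values were seen, and Alas2, Col1a2 and Fmod are named as the only ones of their lists. Genes that the rule picks but the text leaves out are not reported here. The genes, the lists and the motifs were chosen with earlier results of these data known. Alternatives were the pseudocount, filter, normalization, trend, a joint fit of both regions, blocking on replicate number, the threshold, a covariate, the form of the ratio, every probe set of a gene and each array left out. Python 3.11.15, pandas 2.3.3, NumPy 2.4.6 and matplotlib 3.10.9 were used.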

Additional observations from a re-analysis of the deposited data

Results flagged for a closer look

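The log2 change of Ctss in KO differed between the regions in the limma test of that difference, over 23283 probe sets. Hippocampus minus cerebellum was -0.88 ± 0.10 (SE), with changes of 0.25 in hippocampus and 1.13 in cerebellum, above 0 in both. This result was known when the gene was chosen, and its call was kept without 2 of the 12 arrays and ended without any of the other 10. The call also ended with the replicate block, a pseudocount of 100, no filter, quantile normalization and no intensity trend.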

How the results depend on the processing

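Leaving out each array in turn kept the sign of every change of Ctss, Fuca1, Fuca2 and the ratio, but not of Cst3 in hippocampus. On the log2 scale Ctss ranged from 0.24 to 0.27 in hippocampus and 1.08 to 1.17 in cerebellum, Cst3 from -0.03 (without WT replicate 1) to 0.07 and 0.63 to 0.70, Fuca1 from 0.20 to 0.27 and 0.21 to 0.31, Fuca2 from 0.17 to 0.27 and 0.27 to 0.41, and the ratio of Ctss to Cst3 from 0.18 to 0.28 and 0.49 to 0.53. With a pseudocount of 100 Ctss changed by 1.04 in cerebellum, and with log2(intensity + 32) in place of plain intensities the ratio changed by 0.465 there, as larger added constants shrink changes. The other settings moved no change of the 4 genes by more than 1 SD. Among these, the replicate block and the leading residual component as a covariate cannot move a change by construction. Their unchanged values therefore say nothing about stability.

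The probe sets called without 1 array ranged from 0 to 4 in hippocampus (4 without WT replicate 2), from 0 to 3 in cerebellum (2 without KO replicate 1 or WT replicate 1, 3 without WT replicate 2) and from 0 to 4 for the regional difference. One fit over all 12 arrays called 6 in hippocampus and 34 in cerebellum, the leading residual component as a covariate called 8 and 2, and a threshold of 0.1 called 1 in cerebellum and 4 for the difference. For the difference a pseudocount of 1 called 2, and a pseudocount of 100, no filter, quantile normalization, no trend and the replicate block each called 0. KO and WT of a region hold the same replicate numbers, 1 array each, so the replicate block could not move the changes. They stayed at 0.25 and 1.13 for Ctss, 0.02 and 0.67 for Cst3, 0.23 and 0.25 for Fuca1 and 0.21 and 0.33 for Fuca2. The block can alter only their errors and the calls, and it called 0 probe sets in each region. The labels do not say whether a number is a mouse, and the samples were not treated as paired, since not every same-numbered pair deviated together. Deviations of same-numbered KO and WT arrays correlated at -0.51 to 0.66 in hippocampus and at -0.24 to 0.34 in cerebellum, and those of the regions at 0.54, 0.50 and -0.25 in KO and -0.01, 0.10 and -0.18 in WT. Medians of the marker lists moved by over 1 SD in 3 of 66 cases: 0.97 and 0.59 for microglia in cerebellum with pseudocounts of 1 and 100, and 0.0039 for astrocytes in hippocampus with every probe set. The microglia shifts follow from the added constant, as larger constants shrink changes, and the cause of the astrocyte shift was not tested.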
